A study of Mus musculus with 5 samples.

Results

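The 10 genes described here encode transcription factors that specify and drive skeletal muscle differentiation, and the membrane proteins that fuse muscle cells. They are Pax7, the myogenic basic helix-loop-helix factors Myf5, Myod1, Myog and Myf6, the MEF2 factors Mef2a, Mef2c and Mef2d, and the fusion proteins Mymk and Mymx. They were chosen by symbol, with earlier results of these data known and by a rule that uses no measured value, and all 10 were found among the 35275 gene identifiers of the deposited table. Their levels were measured by messenger RNA sequencing of the gastrocnemius, a calf muscle, in 5 libraries of 1 group. The mice were 12-week-old females of the immunodeficient NSG strain (NOD scid gamma), with a genotype labelled as wild type. They were given extracellular vesicles from MCF-10A/miR122 cells, a human breast epithelial line named in the labels with the liver-enriched microRNA miR-122, by the tail vein, 2 times a week for 5 weeks, 10 injections of about 10 µg each, and muscle was removed 2 days after the last one. No library from untreated mice, or from mice given other vesicles, was analysed here, so no effect of the treatment can be read from these values. The labels number the samples 1 to 5 without saying outright that each is a separate animal, so any p-value measures only the spread between these samples, which may be technical.

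In adult muscle, Pax7 marks the satellite cells, the resident stem cells that lie beside the fibres. When they are activated, Myf5 and Myod1 commit them to the myoblast fate, Myog drives their differentiation, and Mymk (myomaker) and Mymx (myomerger) let the differentiating cells fuse into fibres. Myf6, also called MRF4, is the myogenic factor best known for its expression in mature fibres. The myogenic factors bind E boxes together with E proteins, and the MEF2 factors bind an A/T-rich site and act with them, also inside fibre nuclei.

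The libraries held 16674504 to 25407988 reads. Levels are given in FPKM, a scale that corrects reads for gene length and library size. It allows different genes to be compared only as far as the gene lengths used are right. Library 3 was the library in which genes were most often highest, since of the 10710 genes with a mean level of at least 1 FPKM, 37.4% had their highest level in it. The muscle identity of the samples was checked on fibre markers, of which all 6 (Acta1, Ckm, Myh4, Myh1, Ttn and Mylpf) were measured at a summed level of 50866 to 64221 FPKM. In whole tissue, more cells of a type and more RNA per cell cannot be told apart.

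The start-site sequences are shown for 3 members that behaved differently between the libraries: Myog, which varied most among the members with a sequence, Pax7, which was highest in libraries 1 and 2, and Mef2d, the steadiest member. Each line gives the window from 250 bases before to 50 bases after the start of transcription, 5′ to 3′ on the strand of the gene, from RefSeq on GRCm38.p6. The windows are chr1:134289754-134290053 on the plus strand for Myog, chr3:88142122-88142421 on the plus strand for Mef2d and chr4:139832919-139833218 on the minus strand for Pax7. Capitals mark E boxes (CANNTG, which reads the same way on both strands) and the core of the MEF2 site (TANNNNTA in which every N is A or T, searched on both strands).
Myog: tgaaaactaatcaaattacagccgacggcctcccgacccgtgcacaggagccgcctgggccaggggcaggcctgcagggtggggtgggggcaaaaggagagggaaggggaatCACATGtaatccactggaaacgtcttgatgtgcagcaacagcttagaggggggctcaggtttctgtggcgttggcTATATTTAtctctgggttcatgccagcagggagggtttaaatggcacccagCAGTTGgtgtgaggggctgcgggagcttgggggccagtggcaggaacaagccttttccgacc
Mef2d: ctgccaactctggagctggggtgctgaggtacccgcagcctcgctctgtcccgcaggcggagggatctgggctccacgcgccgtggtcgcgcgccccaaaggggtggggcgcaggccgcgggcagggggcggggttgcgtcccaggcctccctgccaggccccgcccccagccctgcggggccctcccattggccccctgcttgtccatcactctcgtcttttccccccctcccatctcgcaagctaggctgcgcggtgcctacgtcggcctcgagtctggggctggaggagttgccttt
Pax7: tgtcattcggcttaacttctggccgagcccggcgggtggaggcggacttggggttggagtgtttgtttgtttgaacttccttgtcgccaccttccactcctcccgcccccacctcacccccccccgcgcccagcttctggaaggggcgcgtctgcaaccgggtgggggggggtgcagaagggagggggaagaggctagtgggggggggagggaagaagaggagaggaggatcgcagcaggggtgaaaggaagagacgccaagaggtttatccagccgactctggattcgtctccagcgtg
The Myog window held 2 E boxes, CACATG starting 138 bases and CAGTTG starting 12 bases before the start of transcription, and 1 MEF2 core starting 63 bases before it, with no overlap between them. The windows of Mef2d and Pax7 held neither motif. The 6 members with a window had 8 windows in all. E boxes were found in 3 of these, from Myog and Mef2c only, against 72.3% of all 32851 windows of the same length. A MEF2 core was found in 3 windows (Myog, Mef2a and 1 of those of Mef2c), against 9.32% of all windows. A window of Mef2c, a member highest in library 5, held both motifs, as that of Myog did. Any link between motifs and levels was not tested. These matches are letters in a window and not measured binding sites. The table was used for Pax7, Myf5, Myog, Mef2a, Mef2c and Mef2d, and Myod1, Myf6, Mymk and Mymx were not matched.

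In the deposited FPKM, the MEF2 factors and Myf6 were the most abundant members. The order depends on gene lengths, which for Mef2c and Mef2a were 6427 and 5538 bases as recovered from the values. Their annotated exons span 15715 and 14681 bases. With those lengths the FPKM of Mef2c and Mef2a would be lower, and their places in the order could change. Mef2c stood first at 72.1 ± 13.9 FPKM (SD, n = 5), followed by Myf6 at 51.8 ± 6.60, Mef2d at 50.2 ± 3.37, Mef2a at 17.9 ± 2.92, Myog at 13.2 ± 9.65 and Myod1 at 8.05 ± 2.94 FPKM. Mymk, at 4.93 ± 9.63 FPKM, and Mymx, at 1.05 ± 2.21 FPKM, had a larger SD than mean. Myf5, at 0.675 ± 0.266 FPKM, and Pax7, at 0.651 ± 0.310 FPKM, stood last. Of the 9 pairs of neighbours in this order, Mef2d over Mef2a alone kept its order in all 5 libraries. Myf6 exceeded Mef2d in 2 of 5 libraries, Mymx exceeded Myf5 in 1 (library 3), and Myf5 exceeded Pax7 in 2. In most libraries these neighbours thus had the order opposite to that of their means, and their places are not firm. The other 5 pairs of neighbours kept their order in 4 of 5 libraries.

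**Figure D1:**
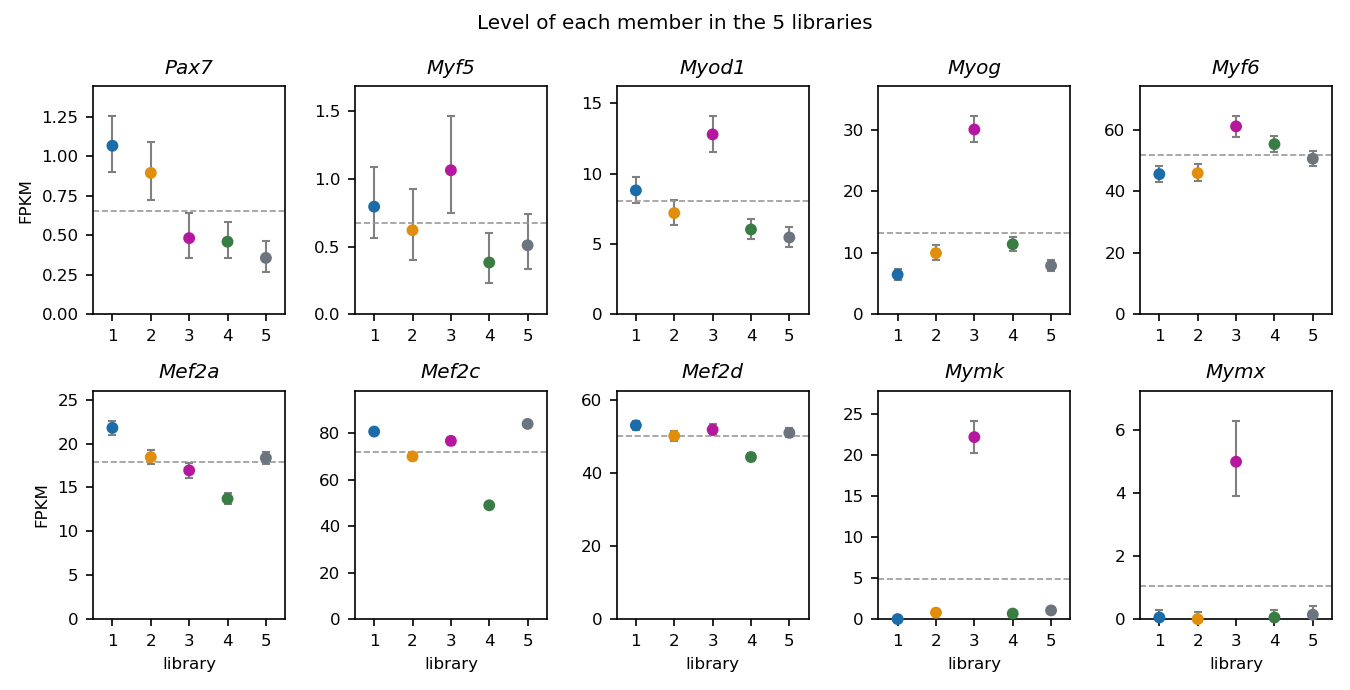
Level of each member in FPKM (vertical axes, each starting at 0) in libraries 1 to 5, with exact Poisson 95% intervals from the recovered reads (grey bars, counting error only) and the mean of the 5 libraries (dashed line). Mymk and Mymx sit at 22.1 and 5.00 FPKM in library 3 and at or below 1.05 FPKM in the others, while Mef2d stays between 44.4 and 53.1 FPKM.

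Pax7 transcripts were scarce and were highest in libraries 1 and 2. Pax7 (ENSMUSG00000028736, GRCm38 chromosome 4, 139737062 to 139833528, minus strand) was at 1.07, 0.894, 0.481, 0.459 and 0.356 FPKM in libraries 1 to 5, from 143, 97, 47, 64 and 53 reads. The exact 95% Poisson intervals of libraries 1 (0.898 to 1.26 FPKM) and 2 (0.725 to 1.09) lay above those of libraries 3 (0.354 to 0.640), 4 (0.353 to 0.586) and 5 (0.267 to 0.466). These intervals cover counting error only. Library 3, in which Myod1 and Myog were highest, was thus among the 3 libraries with little Pax7. The FPKM ratio of Myog to Pax7 was 62.5 in library 3, against 6.05, 11.1, 24.8 and 22.2 in libraries 1, 2, 4 and 5, and that of Myod1 to Pax7 was 26.5 in library 3, against 8.04 to 15.3 in the others.

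Of the myogenic factors, Myf6 made up most of the transcripts and Myog differed most between libraries. Myf5 (chromosome 10, 107482908 to 107486134, minus strand), the earliest factor in the embryo, was at 0.796, 0.622, 1.07, 0.383 and 0.510 FPKM in libraries 1 to 5, from 19 to 38 reads. Library 3 was the highest and library 4 the lowest, but the 95% Poisson interval of library 3 (0.750 to 1.47) overlapped those of libraries 1 (0.563 to 1.09) and 2 (0.398 to 0.925). Myod1 (chromosome 7, 46376474 to 46379099, plus strand), the factor that can turn other cell types into muscle, was at 8.80, 7.19, 12.8, 6.02 and 5.46 FPKM. It was highest in library 3, 1.45-fold above library 1, the next.

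Myog (ENSMUSG00000026459, chromosome 1, 134289989 to 134292548, plus strand), the differentiation factor whose start-site sequence is shown above, was at 6.45, 9.96, 30.1, 11.4 and 7.90 FPKM in libraries 1 to 5, from 221 to 750 reads. Library 3 was 2.64-fold above the next, library 4, and its 95% Poisson interval (28.0 to 32.3 FPKM) lay far above that of library 4 (10.3 to 12.6). Without library 3 the mean of Myog was 8.93 ± 2.19 FPKM (SD, n = 4). Myf6 (chromosome 10, 107492853 to 107494737, minus strand), which lies next to Myf5 on the chromosome, was at 45.6, 46.0, 61.2, 55.4 and 50.6 FPKM. It was 1.10-fold higher in library 3 than in library 4, and after median-of-ratios scaling of the libraries library 4 was the highest, at 61.9 against 57.4 in library 3.

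The summed level of the myogenic factors was 105 FPKM in library 3, against 61.7, 63.7, 73.2 and 64.5 FPKM in libraries 1, 2, 4 and 5. Myf6 took 58.2% of the sum in library 3, against 72.1% to 78.5% in the others. Myog took 28.6% in library 3, against 10.5%, 15.6%, 15.6% and 12.2% in libraries 1, 2, 4 and 5. The share of Myod1 was 12.2% in library 3, within its range of 8.23% to 14.3% in the others, and that of Myf5 was 0.523% to 1.29% over all 5 libraries. The make-up of library 3 thus differed from the others in its shares of Myog and Myf6.

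The MEF2 factors were abundant, and each had its lowest FPKM in library 4, although for Mef2d that depended on the scaling. Mef2c (chromosome 13, 83504034 to 83667080, plus strand), the MEF2 factor needed for sarcomere integrity, was at 80.7, 70.0, 76.7, 49.0 and 84.0 FPKM in libraries 1 to 5. Mef2d (chromosome 3, 88142372 to 88172086, plus strand) was at 53.1, 50.2, 51.9, 44.4 and 51.1 FPKM, a coefficient of variation of 6.73%, the lowest of the 10 members. Mef2a (chromosome 7, 67231163 to 67372858, minus strand) was at 21.8, 18.5, 16.9, 13.7 and 18.4 FPKM. All of them were lowest in library 4, as were 38.0% of all genes at 1 FPKM or more. Under median-of-ratios scaling, by which the genes of library 4 as a whole stood at -0.16 on the log2 scale before it, the lowest levels of Mef2c (54.7 against 65.6 to 90.0) and Mef2a (15.3 against 15.9 to 20.9) were again in library 4, but that of Mef2d was in library 2 (47.1, against 49.7 in library 4). Their shares of the summed level stayed in 1 order in every library, with 45.7% to 54.7% for Mef2c, 33.3% to 41.5% for Mef2d and 11.6% to 14.0% for Mef2a. This order and the shares depend on the gene lengths used, which for Mef2c and Mef2a were far below the annotated ones. The remaining family member, Mef2b, was at 0 to 0.201 FPKM. Mef2a shares part of its span with Lysmd4 and Mef2d with 1700113A16Rik, both on the opposite strand, and no source used here gives the strand setting of the counting.

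**Figure D2:**
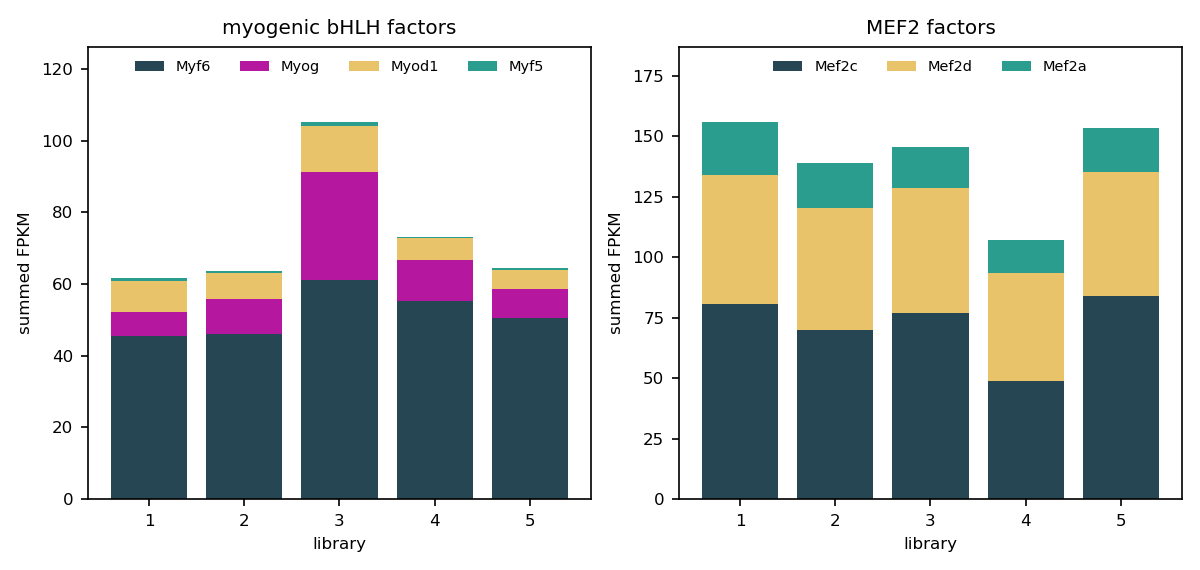
Summed FPKM (vertical axis, from 0) of the myogenic basic helix-loop-helix factors (left) and of the MEF2 factors (right) in libraries 1 to 5, with each gene as a coloured part of the bar. Myog fills 28.6% of the bar in library 3 and 10.5% to 15.6% in the others, while the parts of the MEF2 bars keep similar proportions and library 4 has the lowest sum, 107 FPKM.

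The fusion genes were low or undetected in 4 libraries and far higher in library 3. Mymk (ENSMUSG00000009214, chromosome 2, 27061636 to 27072179, minus strand) was at 0, 0.781, 22.1, 0.668 and 1.05 FPKM in libraries 1 to 5, from 0, 20, 510, 22 and 37 reads. Mymx (ENSMUSG00000079471, chromosome 17, 45600971 to 45602102, minus strand), which encodes a micropeptide, was at 0.0512, 0, 5.00, 0.0493 and 0.139 FPKM, from 1, 0, 71, 1 and 3 reads. Both were highest in library 3 by a wide margin, and no other library came near it. Per read of library depth, Mymk was 35.1-fold higher in library 3 than in the other 4 libraries together (510 reads against 79; exact 95% interval of the ratio 27.7 to 45.1), and Mymx 77.2-fold higher (71 reads against 5; 31.6 to 245). These intervals cover counting error only.

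Mymk was listed at 0 in library 1. A count of 0 allows up to 3 reads, or 0.0947 FPKM at the depth of that library, for counting error only. At the level of library 4, the lowest of the others, 21.2 reads would have fallen in library 1. Of all genes in the table, Mymk alone was at 0 reads in 1 library and at 20 or more reads in each of the others. The bound of 20 equals the count of Mymk in library 2, its lowest above 0, so it fits this gene closely. With the bound at 10 reads, there were 2 more such genes, Zfp652os in library 3 and Lrrc8b in library 4, which were named after their values were seen. Whether the 0 of library 1 is a low level of the transcript or comes from the processing before deposit cannot be told apart from these values. Library 1 also had the lowest Myog and the highest Pax7 of the 5 libraries.

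**Figure D3:**
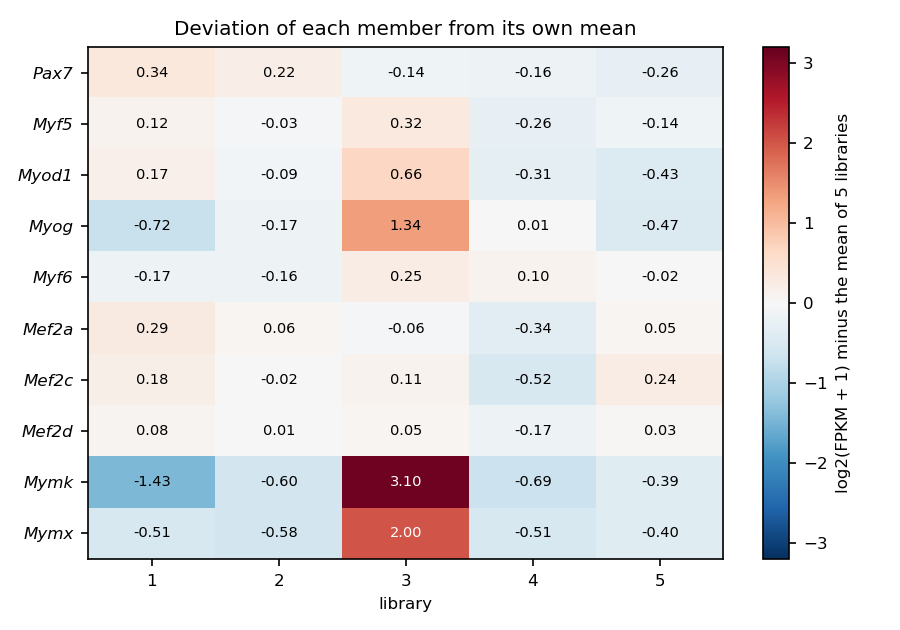
Deviation of each member (rows) from its own mean over libraries 1 to 5 (columns) on the log2(FPKM + 1) scale, red above and blue below the mean. Library 3 is at 3.10 for Mymk and 1.34 for Myog, with Mymx between them, and at -0.14 to 0.11 for Pax7 and the MEF2 factors, and library 1 is at -1.43 for Mymk.

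Levels within a family were compared as log2 ratios in each library on the log2(FPKM + 1) scale, over 10 pairs, of which 8 had 1 order in every library. Myf6 exceeded Myog by 2.09 ± 0.65, Myod1 by 2.59 ± 0.40 and Myf5 by 4.98 ± 0.25 (SD, n = 5). Its ratio to Myog was 1.00 in library 3, against 2.10 to 2.65 in the others. Myog exceeded Myf5 by 2.89 ± 0.70, and Myod1 exceeded Myf5 by 2.39 ± 0.23. The FPKM ratio of Myod1 to Myf5 was 10.7 to 12.0 in libraries 1, 2, 3 and 5, and 15.7 in library 4, where Myf5 had 19 reads. Mef2c exceeded Mef2d by 0.49 ± 0.22 and Mef2a by 1.94 ± 0.17, and Mef2d exceeded Mef2a by 1.45 ± 0.15. The size of the MEF2 ratios, and the sign of Mef2c over Mef2d, depend on the gene lengths used. For each of these 8 pairs p was 0.0625 by an exact permutation test that flips signs (two-sided), and 0.0781 once adjusted for the 10 pairs by Benjamini-Hochberg. With 5 samples p cannot be lower, and 0.05 was out of reach.

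In the remaining pairs, library 1 had the opposite order. Myog exceeded Myod1 by 0.50 ± 0.59 (SD, n = 5), with ratios of 1.17 in library 3, 0.42, 0.82 and 0.46 in libraries 2, 4 and 5, and -0.40 in library 1 (p = 0.125 by the same exact permutation test, and 0.125 when adjusted). Mymk exceeded Mymx by 0.85 ± 0.72, and by 1.86 with a pseudocount of 0.1. With the pseudocount of 1 the ratio was 1.95 in library 3 and -0.07 in library 1, where both were at or below 1 read (p = 0.125 in the same exact test, and 0.125 when adjusted).

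**Figure D4:**
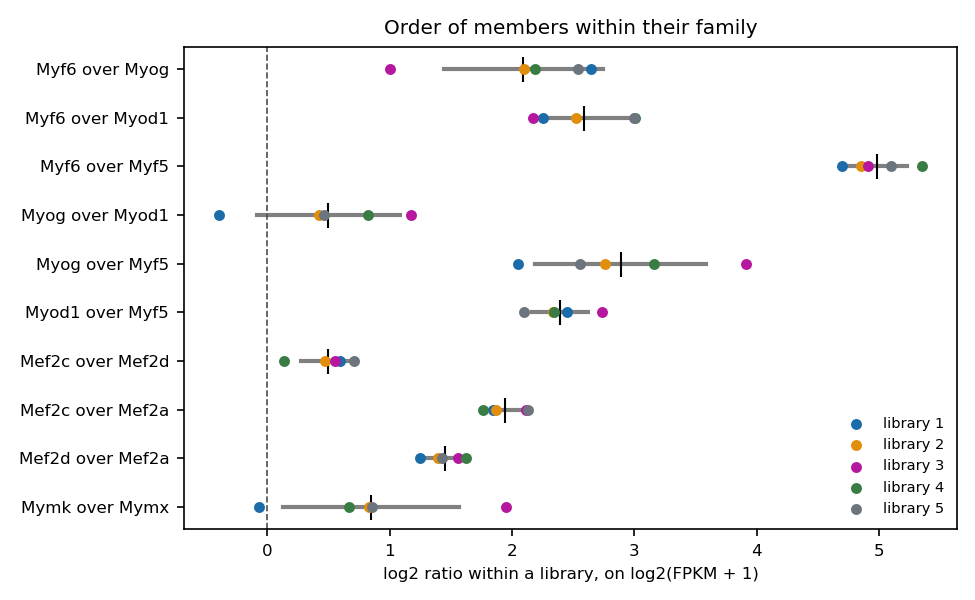
Log2 ratio of each pair of members of a family within each library (coloured points), on the log2(FPKM + 1) scale, with the mean (black tick) and SD (grey bar, n = 5). Library 3 gives the lowest ratio of Myf6 over Myog (1.00), and library 1 lies below 0 for Myog over Myod1 and Mymk over Mymx.

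The spread of the members between libraries was set against counting error and against other genes of the same level. All 10 members varied by more than counting error (chi-square test on recovered reads, Benjamini-Hochberg adjustment over 13885 genes), as did 83.9% of all genes tested, with the largest adjusted p, 0.00187, for Myf5. Without library 3, Myf5 no longer passed (adjusted p = 0.0663), and Mymx was too low to be tested. The median coefficient of variation was 27.9% over the 8 members with a mean of at least 1 FPKM, against 16.3% over the 10710 genes, and 37.9% over all 10 members. Of the members, 8 were at a mean of 1 FPKM or more, Pax7 and Myf5 being below it. Mymk and Mymx passed that level only through library 3, since their means without it were 0.626 ± 0.447 and 0.0598 ± 0.0576 FPKM (SD, n = 4), so that counts over the 8 are descriptions.

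None of the 8 varied beyond the abundance trend of all genes after adjustment (limma, Benjamini-Hochberg over 10710 genes), nor did any of the 10710 genes (0.0%). At an unadjusted p under 0.05 there were 3, Mymk, Mymx and Myog, against 5.75% of all genes (616). The number was 0 of the 6 members tested without library 3, and 2 with a pseudocount of 0.1 or with median-of-ratios scaling. Their variance was 71.5, 22.7 and 18.9 times that of the trend, which placed them at rank 7, 86 and 127 of the 10710 genes (adjusted p = 0.640 each, limma). Mef2d stood at the other end, at 0.285 times the trend and rank 9405, and Myf6 was near it, at 0.922 times. Of the 8 members, 5 had their highest level in library 3 (Myod1, Myog, Myf6, Mymk and Mymx), against 37.4% of all genes, but 3 of 7 after median-of-ratios scaling, when Myf6 was highest in library 4 and the mean of Mymx was 0.988. The gap between the highest library and the next was taken as a share of the whole range on the log2(FPKM + 1) scale. It passed Dixon's 95% critical value (two-sided, for a gap at either end) for Mymk and Mymx, against 4.96% of all genes. For Myog it was 0.643 and did not pass.

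The genes around the members in the pathway are given next by lists, which were drawn up from textbook roles. The median deviation of the members at 1 FPKM or more was 0.45 in library 3 on the log2(FPKM + 1) scale, against -0.33 to -0.04 in the others, and that of all genes at 1 FPKM or more was 0.06 in library 3 and -0.10 to 0.05 in the others. These members include Mymk and Mymx, which reached 1 FPKM only through library 3. The filter itself thus raises the value of 0.45, which is a description only. No gene of any list below varied beyond the abundance trend after adjustment (limma).

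Of the upstream regulators of the myogenic factors, 15 of 17 genes were at 1 FPKM or more and 3 of these were highest in library 3 (the share over all genes was 37.4%), with a median deviation there of -0.04. The homeobox factor gene Lbx1 was at 39.1 ± 4.54 FPKM (SD, n = 5). The E proteins Tcf3, Tcf4 and Tcf12, with which the myogenic factors pair, were at 9.56 ± 1.03, 5.39 ± 0.798 and 4.91 ± 0.997 FPKM (SD, n = 5). Of the inhibitors of these factors, 10 of 13 were at 1 FPKM or more and 5 were highest in library 3. Among them were Id3, at 24.6 FPKM in library 4 against 13.2 to 16.6 in the others, and Id1, at 6.73 FPKM in library 1 against 17.3 to 20.3 in the others. The Id proteins lack a DNA-binding region and hold E proteins away from the myogenic factors.

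Partners and repressors of MEF2 had a median deviation close to 0 in library 3. Of 17 of 19 genes at 1 FPKM or more, 4 were highest in library 3, against 37.4% of all genes, and the median deviation there was 0.01. The cofactor Vgll2 was at 89.2 FPKM in library 2 against 50.6 to 62.0 in the others, and Ppp3ca, a catalytic subunit of the phosphatase calcineurin, at 53.8 ± 5.93 FPKM (SD, n = 5).

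Of the satellite cell markers, 14 of 19 genes were at 1 FPKM or more. Of these, 1 was highest in library 1 and 4 in library 2, the libraries with the most Pax7. Library 3 was highest for 8, against 37.4% of all genes, and library 4 for 1. The most abundant, Des and Itga7, are also made by fibres, and were at 2870 and 83.0 FPKM in library 3, against 1297 to 1750 and 30.2 to 48.3 in the others. The cadherin gene Cdh15 was at 15.8 FPKM in library 3 against 10.1 to 14.0 in the others. The markers below 1 FPKM had no common highest library. Of these, the receptor gene Calcr was highest in library 1, near the floor, at 0.163 FPKM against 0 to 0.128 in the others. Megf10 and Tenm4 were highest in library 3, and Chrdl2 and Pax3 in library 5. All of these were named after their values were seen. Pax3, the paralog of Pax7, was at 0 in 4 libraries and at 0.0102 FPKM in library 5.

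Of the other fusion machinery, 19 of 24 genes were at 1 FPKM or more. Of these, 14 were highest in library 3, against 37.4% of all genes, and the median deviation there was 0.30. The membrane repair gene Trim72 was at 367 FPKM in library 3 against 178 to 227 in the others, and the annexin genes Anxa5 and Anxa1 at 67.1 and 38.4 FPKM against 28.8 to 34.2 and 11.7 to 15.9. Tmem182 was at 138 ± 15.3 FPKM (SD, n = 5), and Nphs1 was at 0 in all libraries.

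Of 14 genes of embryonic and regenerating muscle, 13 were at 1 FPKM or more. Of these, 12 peaked in library 3, against 37.4% of all genes. The median deviation of the 13 was 1.39 there, against -0.62 to -0.11 in the others. Chrng, the fetal subunit of the acetylcholine receptor, was at 10.2 FPKM in library 3 against 0.0302 to 0.136, the tubulin gene Tubb6 at 146 against 12.0 to 16.2, and the embryonic troponin T gene Tnnt2 at 11.8 against 1.64 to 3.09. The cell cycle inhibitor genes Cdkn1a and Cdkn1c, which are turned on as myoblasts leave the cycle, were at 76.7 and 41.4 FPKM in library 3 against 14.5 to 36.6 and 12.2 to 18.8 (both named after their values were seen). Of the 8 cell cycle genes, 3 reached 1 FPKM, and all 3 were highest in library 3, against 37.4% of all genes at that level. Among them, Pcna was at 13.6 against 9.87 to 12.5 FPKM and Ccnd1 at 5.24 against 1.51 to 3.34. The cell cycle genes below 1 FPKM were highest in library 3 as well, but no share over all genes of so low a level was found.

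Markers of some other cell types were higher in library 3, as Mymk, Mymx and Myog were, and their part in the result was not tested. The 10 macrophage markers were all highest there, with a sum of 366 FPKM against 93.4 to 124 in the others, and none was at 0. The share over all genes at 1 FPKM or more was 37.4% for library 3. Of the 8 fibro-adipogenic and fibroblast markers, 6 were highest there (1187 FPKM against 680 to 877), of the 6 smooth muscle and pericyte markers 5 (230 against 140 to 185) and of the 6 Schwann cell markers 4 (187 against 86.6 to 128). Of the 6 endothelial markers 0 were highest in library 3, and their sum of 71.3 FPKM lay within 70.2 to 92.7 in the others. The 5 neutrophil markers summed to 0.696 FPKM, within 0.405 to 6.97 in the others, with Ly6g at 0 throughout. The fibre markers summed to 55586 FPKM in library 3, within the range of the others, 50866 to 64221 FPKM.

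**Figure D5:**
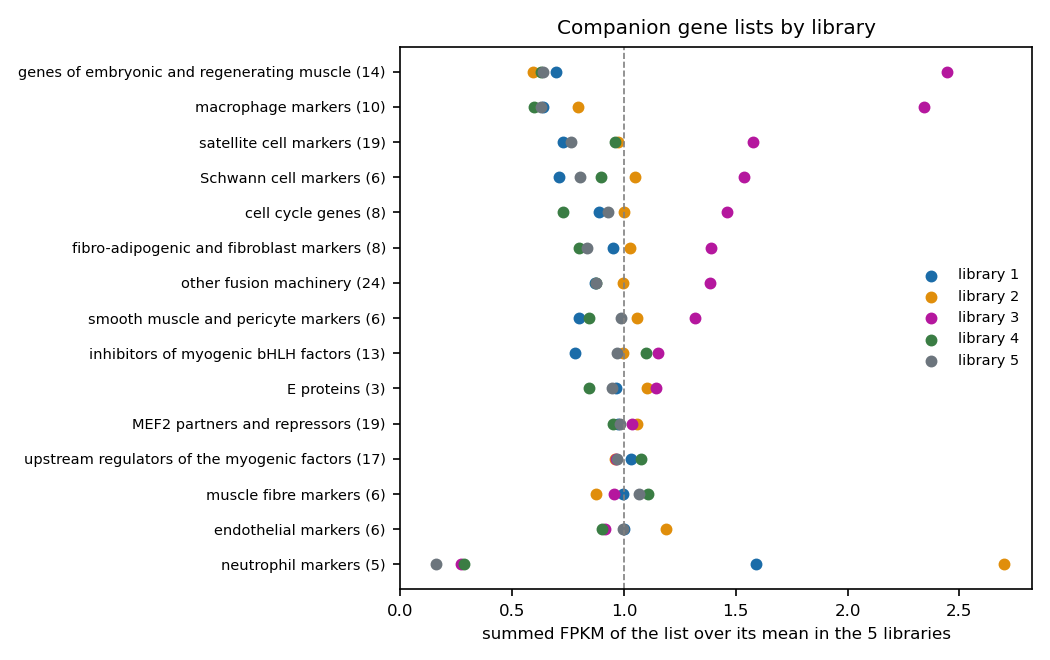
Summed FPKM of each companion list in libraries 1 to 5, divided by its mean over the 5 libraries (horizontal axis; number of genes in brackets). Library 3 stands to the right for the genes of embryonic and regenerating muscle (523 FPKM against 127 to 149) and for the macrophage markers (366 against 93.4 to 124), and lies among the other libraries for muscle fibre markers and MEF2 partners.

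For each member at 1 FPKM or more, the 3 genes with the most similar profile were found by the Euclidean distance between deviations on the log2(FPKM + 1) scale over the 5 libraries, which share depth and composition effects. The nearest to Mymk were the pseudogene Rpl3-ps1, Timp1 (34.4 FPKM in library 3 against 1.62 to 3.42) and Postn (61.7 against 2.72 to 6.13), at distances of 0.82 to 0.93. Those of Mymx were Cd74, Ccl6 and Lgals3 (0.31 to 0.34), and those of Myog were Gm13341, a pseudogene, C4b and Cdo1 (0.21 to 0.32). Nrros, Crtap and Plxnb2 were nearest to Myod1 (0.12 to 0.15). Genes near to Myf6 included the ribosomal protein gene Rpl6 (0.02) and Gsdme (0.05). Mef2d lay nearest to Klhl20, Alkbh5 and Emc2 (0.03 to 0.04), Mef2a to Hcfc2, Etnk1 and Pmm2 (0.04 to 0.06) and Mef2c to Kif5b, Ctbs and Ppfibp1 (0.11 to 0.13). The values of Rpl3-ps1 and Gm13341 are uncertain, since counting can split reads between near-identical copies. Small distances are easily found among 10710 genes with 5 values each.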

How the data were processed

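Levels were taken from the table that the authors deposited, which holds FPKM values (reads corrected for gene length and library total) per gene and library. The build mm10 and the tools STAR 2.5, HTSeq 0.6.1, TopHat, edgeR and DESeq2 are named, with no role or order, per the submitters' processing notes. No source used here gives the annotation release or strand setting. Per the labels' protocols, about 20 mg of muscle gave the RNA, from which poly-T beads took the messenger RNA. Because FPKM is divided by the library total, a larger share for some abundant genes lowers the FPKM of the rest.

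Symbols and coordinates came from GENCODE M21 (GRCm38, the assembly of mm10), which matched 34490 of 35275 identifiers. Reads were recovered as whole numbers. Library totals were the commonest values that made low genes whole at their annotated length, and each gene's length was then the annotated one or, failing that, the shortest that made all its values whole within 0.001 of a read (for genes above 0 in under 3 libraries, the one nearest to the annotated length). This worked for all 20840 genes above 0, of which 4544 were whole at their annotated length, and the reads summed to 99.4% to 99.5% of the totals. The totals, 16674504 to 25407988 reads, set the precision of each value. A level read from 3 reads is taken as the limit, about 95% one-sided, that a count of 0 allows.

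Genes with a mean of at least 1 FPKM entered a test on log2(FPKM + 1) with limma 3.58.1 in R 4.3.3, as the variance over its abundance trend, one-sided, against F with 4 and 3.93 degrees of freedom. Folds on this scale understate those of low genes. On data simulated for 10710 genes this test recovered 0%, 0%, 2% and 54% of genes given 2, 4, 8 and 64 times the SD after adjustment, with 0 false calls, so its count of 0 has little weight. The chi-square test on reads of genes at a mean of 10 or more recovered 36%, 60%, 76% and 100% of genes 1.25, 1.5, 2 and 4 times higher in 1 library, with 9 false calls among 13885 genes. Ratios were tested over 32 sign patterns. The threshold was 0.05. Tools were matplotlib 3.10.9, pandas 2.3.3, scipy 1.17.1 and numpy 2.4.6 under Python 3.11.15. Alternatives were another pseudocount, filter or scaling, and leaving out each library.

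The members and the 15 gene lists (8 of pathways, 7 of cell type markers) were chosen with earlier results of these data known. The named genes were the members, the 2 most abundant genes of each list, list genes whose highest or lowest library passed Dixon's critical value, and the 3 genes nearest to each member. The text gives most of these, and some are not reported here. Tcf12, Mef2b, Pax3, Calcr, Megf10, Tenm4, Chrdl2, Cdh15, Cdkn1a, Cdkn1c, Zfp652os and Lrrc8b, and genes at 0, were named after their values were seen.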

Additional observations from a re-analysis of the deposited data

Results flagged for a closer look

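Among the 10 members, Mymk and Mymx each had a library far from the others. Both reached a mean of 1 FPKM only through that library, so their gaps are descriptions and no support for a result. The gap between library 3 and the next highest was 0.771 of the whole range for Mymk and 0.928 for Mymx, on the log2(FPKM + 1) scale. The gap of Mymk no longer passed the critical value with a pseudocount of 0.1 or without library 2, 4 or 5, and Mymx was no longer in the comparison under median-of-ratios scaling, since its mean was then 0.988 FPKM. For normally distributed values, chance gives a gap past the critical value, at the high or the low end, in about 1 in 20 groups.

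Of all genes at 1 FPKM or more, 4.96% had a highest library that passed the critical value, and 37.4% were highest in library 3. The share of 4.96% leaves out low libraries, which the 1 in 20 includes, so the shares are not alike. Another 20 genes of the companion lists were picked out in the same way, by a high or a low library, and 15 of them had library 3 as the high library. These were Chrng (0.959 of the range), Tubb6 (0.885), Myl4 (0.849), Chrna1 (0.838), Ankrd1 (0.747) and Tnnt2 (0.721) among the genes of embryonic and regenerating muscle. The macrophage markers C1qb (0.873), Cd68 (0.806), Itgam (0.747), Lyz2 (0.744) and C1qc (0.743) and the fibroblast marker Ly6a (0.845) had the same high library. So did the annexin genes Anxa5 (0.8) and Anxa1 (0.749) and the repressor gene Snai1 (0.757). In the other 5 a different library stood apart, with Gadd45a high in library 4 (0.943), Id1 low in library 1 (0.852), Eya1 high in library 1 (0.847), Zeb1 low in library 4 (0.769) and the fast myosin light chain gene Mylpf low in library 2 (0.716). Gadd45a was at 24.6 FPKM in library 4 against 14.3 to 14.8 in the others.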

How the results depend on the processing

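With 1 library left out, the 10 ratios within families kept their sign, and so they did with a pseudocount of 0.1, which moved Mymk over Mymx to 1.86, against 0.85 as reported. The ratio of Myog over Myod1 was 0.33 to 0.72 with 1 library left out, and that of Mymk over Mymx 0.57 to 1.08. With 4 samples the smallest p was 0.125. The number of genes beyond the abundance trend was 0 to 4 with 1 library left out, the 4 without library 3 (Sln, Slc25a25, Egr1 and Arrdc2, named after their values were seen). The number beyond counting error was 10144 to 11042 with 1 library left out. Members highest in library 3 numbered 5 as reported, 5 to 6 with 1 of the other libraries left out, and 3 of 7 under median-of-ratios scaling, which made library 4 highest for Myf6 and put Mymx below a mean of 1 FPKM. Members whose highest library stood apart numbered 2 as reported, 1 with a pseudocount of 0.1 (Mymx), 1 under median-of-ratios scaling (Mymk) and 0 to 2 with 1 library left out, 0 without library 3 and 1 (Mymx) without library 2, 4 or 5. The mean of Mymk was 0.626 to 6.16 FPKM and that of Mymx 0.0598 to 1.31 FPKM with 1 library left out, the lowest without library 3. Depth limits Mymx, Myf5 and Pax7, whose median reads per library were 1, 27 and 64. No paired analysis was possible because the series has 1 group, so no other group shares the replicate numbers.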
